A study of Mus musculus with 26 samples.

Results

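Mouse livers labelled Alb-Cre:Hdac3-/- were compared 50 days (50d, 3 libraries) and 21 days (21d, 4 libraries) after successive PH (sPH). PH commonly stands for partial hepatectomy, the removal of liver lobes. These 7 libraries, out of 26 in the series, were taken by their titles alone. All 7 came from C57BL/6 mice given as 2 to 3 months old. In the labels they share the strain, the Hdac3 deletion and sPH, and differ only by the day. What sPH comprised is not stated. Both days carry the same age range, so a difference in age at sPH or at collection cannot be told apart from the day. The Alb promoter drives Cre mainly in hepatocytes, so other liver cells keep Hdac3. Levels in the same genotype at 0 days (0d, 3 libraries) and 7 days (7d, 4 libraries) and in wild-type liver (WT, 3 libraries, the same strain and age, with no operation named) are given for orientation. Those libraries also entered the main fit, so they bear on the p-values of 50d against 21d.

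Hdac3 encodes a histone deacetylase that works as the enzyme of the NCoR and SMRT corepressor complexes. In liver these complexes are brought to DNA by nuclear receptors, among them the REV-ERB proteins of the circadian clock. The clock is a loop in which BMAL1 with CLOCK or NPAS2 switches on the Per, Cry and Nr1d genes, whose products then hold BMAL1 activity or the Bmal1 gene down. Liver clock genes therefore swing over the day, and many genes of fat, sterol and glucose handling swing with them or with meals. The labels give neither the hour at which livers were taken nor the feeding state, so a difference in day after sPH and a difference in hour or feeding cannot be told apart here.

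Library totals ran from 9617006 to 10168812 counts in 50d and from 8993223 to 9907440 counts in 21d, and 15691 to 16068 genes were listed per library. Levels below are CPM, counts scaled to a common library size with TMM factors. All 7 libraries held Y-linked transcripts, with Ddx3y, Eif2s3y, Kdm5d and Uty summing to 67.5 to 83.7 CPM in 50d and 41.5 to 74.3 CPM in 21d. In 0d and WT those genes summed to at most 0.27 CPM, so levels at 0d and in WT come from livers of another sex. Hepatocyte markers summed to 52360 to 58090 CPM in 50d and 51430 to 59750 CPM in 21d, and fat and muscle markers were at or near 0. Hdac3 itself averaged 44.9 ± 5.65 CPM in 50d (SD, n = 3) and 46.6 ± 5.62 CPM in 21d (SD, n = 4), with 34.5 CPM in WT. A gene-level count does not separate the deleted exons, so it does not check the deletion. In 21d, replicate 3 stood apart. Its chi-square per degree of freedom against the other 21d libraries was 131.57 to 169.11, while pairs of those others gave 11.23 to 19.38 and pairs of 50d libraries 11.16 to 36.69.

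The main fit took in all 17 young libraries (WT, 0d, 7d, 21d and 50d), the WT and 0d ones of another sex. Of 13617 genes tested with edgeR's quasi-likelihood test and Benjamini-Hochberg adjustment, 60 (0.441%) differed between 50d and 21d at an adjusted p under 0.05. Of these, 36 were higher (0.264%) and 24 lower (0.176%) in 50d, and in all 60 the 50d libraries did not overlap the 21d libraries. Over all genes tested, 2031 (14.9%) did not overlap, 1083 with all 50d libraries above (7.95%) and 948 with all below (6.96%). An unadjusted p under 0.05 was reached by 1646 genes (12.1%), 820 higher (6.02%) and 826 lower (6.07%), and the median log2 fold change was -0.01. With DESeq2 261 genes (1.92%) were called, 144 higher (1.06%) and 117 lower (0.859%), with limma voom and quality weights 859 (6.31%), 458 higher (3.36%) and 401 lower (2.94%), and with edgeR on the 7 libraries alone 226 of 12808 (1.76%), 143 higher (1.12%) and 83 lower (0.648%). Counts of list members below, called or at an unadjusted p under 0.05, are to be read beside these shares. The count of 60 depended on each library. It was 36, 22, 40 and 28 without 21d replicates 1, 2, 3 and 4, and 14, 24 and 7 without 50d replicates 1, 2 and 3. The 7 genes that passed in each of those fits were Ppard, Slc11a2, Vnn3, Pdzrn3 and Arntl, which rose, and Angptl4 and Slc25a47, which fell. In the edgeR fit of all 26 libraries Ppard, Arntl and Angptl4 kept their calls. Slc11a2, Vnn3, Pdzrn3 and Slc25a47 lost theirs there (adjusted p = 0.0872, 0.138, 0.394 and 0.72).

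**Figure D1:**
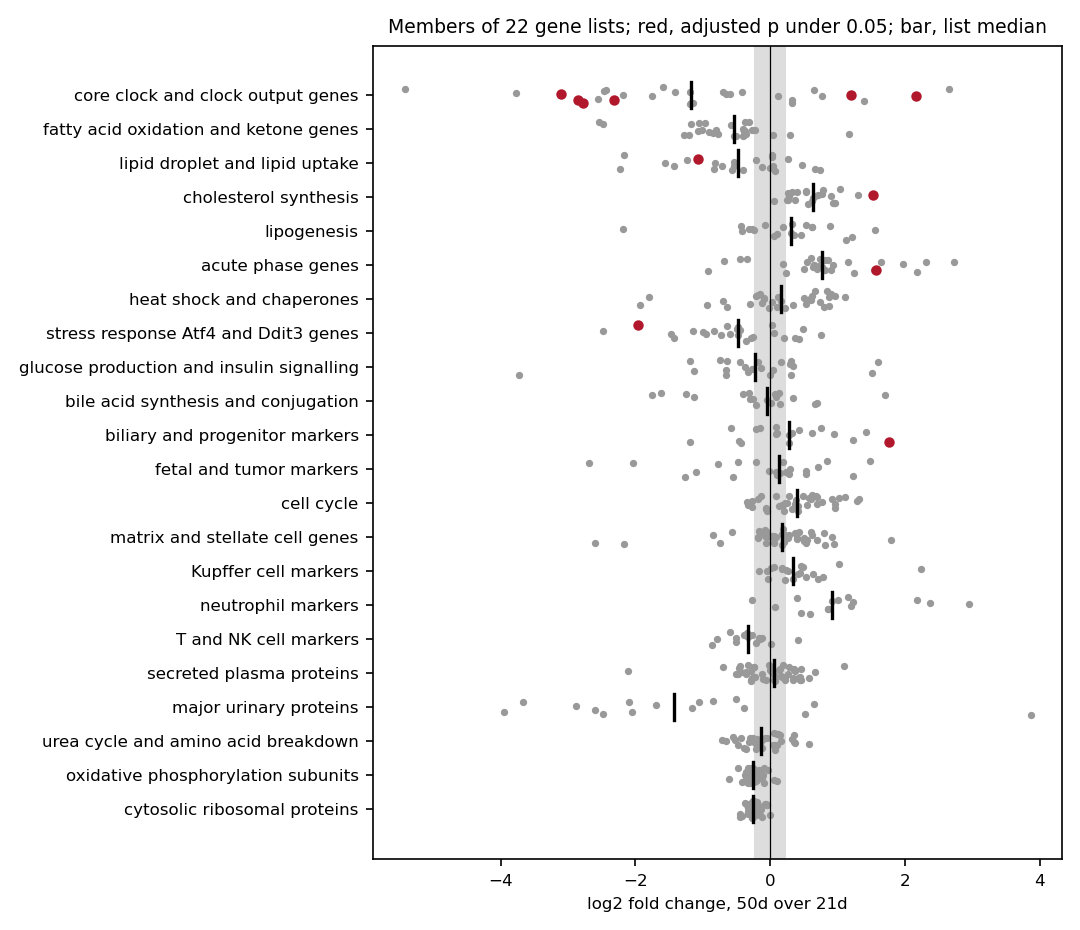
Log2 fold change of 50d over 21d for the tested members of 22 gene lists. Each point is 1 gene, red points passed an adjusted p under 0.05, the black bar is the list median and the grey band holds the middle of all genes tested. Clock genes hold 6 of the red points on both sides of 0, while ribosomal and oxidative phosphorylation genes lie close together just below 0.

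In the clock, the gene of the activator BMAL1 was higher in 50d, and genes of several of its repressors and outputs were lower. Of 30 clock and clock output genes tested, 2 rose (Arntl and Nfil3) and 4 fell (Per1, Per3, Tef and Noct). DESeq2 called 5 higher and 14 lower, limma voom with quality weights 5 and 16, and edgeR on the 7 libraries alone 3 and 13. In 6 members all 50d libraries lay above all 21d libraries, against 7.95% of all genes tested, and in 17 all lay below, against 6.96%. An unadjusted p under 0.05 was reached by 5 higher and 19 lower members, and the list median was -1.18, against -0.01 over all genes tested. Without 21d replicate 3 the median was -0.75, and the list again held 2 genes that rose and 4 that fell.

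Arntl on chromosome 7 encodes BMAL1, the activator at the centre of the loop. It stood at 28.4, 28.4 and 24.1 CPM in 50d, against 7.52, 5.79, 3.45 and 7.33 CPM in 21d. Every 50d library was above every 21d library, by a log2 fold change of 2.16 ± 0.32 (adjusted p = 0.00604). Nfil3 encodes a repressor that competes with DBP and TEF at D-box sites. It stood at 72.9, 69.0 and 68.1 CPM in 50d, against 34.2, 26.3, 24.6 and 36.3 CPM in 21d, and rose by 1.21 ± 0.21 on the log2 scale (adjusted p = 0.0142). The 50d libraries were close to each other and well clear of the 21d ones. The Nfil3 call was lost without 21d replicate 2 or without any 1 of the 50d libraries, at an adjusted p of up to 0.0802.

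Other clock genes that lay higher in 50d, chosen after their values were seen, did not pass the adjusted threshold. Npas2, the stand-in for CLOCK, had 12.8, 7.48 and 8.33 CPM in 50d, against 2.12, 1.42, 0.32 and 2.17 CPM in 21d (log2 fold change 2.66 ± 0.66, adjusted p = 0.106). Cry1, a late-acting repressor of the loop, had 14.0, 6.07 and 8.54 CPM in 50d, against 2.44, 4.26, 5.50 and 2.29 CPM in 21d (1.39 ± 0.40, adjusted p = 0.154). Clock had 20.5, 25.3 and 23.9 CPM in 50d, against 20.4, 20.4, 13.5 and 19.8 CPM in 21d (0.33 ± 0.16, adjusted p = 0.441). Npas2 was thus clearly separated between the groups. For Cry1 the lowest 50d library (6.07 CPM) lay only a little above the highest 21d library (5.50 CPM), and the Clock libraries of both groups nearly met.

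Several other genes of the repressing arm and of clock output lay lower. Per1, on chromosome 11 and a repressor of BMAL1 and CLOCK, stood at 4.89, 19.01 and 9.70 CPM in 50d, against 69.6, 72.1, 70.2 and 94.4 CPM in 21d. The highest 50d library was far below the lowest 21d library, and the log2 fold change was -2.77 ± 0.41 (adjusted p = 0.00604). Without 50d replicate 3 its adjusted p was 0.0587. Per3, on chromosome 4, stood at 1.25, 1.72 and 0.95 CPM in 50d, against 6.04, 11.7, 21.2 and 6.49 CPM in 21d (-3.11 ± 0.50, adjusted p = 0.0101). Tef, on chromosome 15, encodes an activator at D-box sites and stood at 11.7, 19.4 and 11.5 CPM in 50d, against 52.1, 66.7, 96.2 and 67.6 CPM in 21d (-2.31 ± 0.36, adjusted p = 0.00851). In both genes the groups were apart, and 21d replicate 3 was the highest library. Without 50d replicate 1 and without 50d replicate 3 the calls were lost, with an adjusted p of 0.0754 and 0.0787 for Per3 and of 0.0754 in both fits for Tef. Noct encodes nocturnin, a rhythmic enzyme of the liver. It stood at 4.03, 7.79 and 5.69 CPM in 50d, against 40.9, 44.2, 39.1 and 43.8 CPM in 21d (-2.85 ± 0.47, adjusted p = 0.0119). Its 21d libraries were nearly equal, 21d replicate 3 included, and the call was lost without 50d replicate 1 (adjusted p = 0.0938) or 50d replicate 3 (0.0849).

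Further members of this arm were separated between the groups without passing the adjusted threshold in the fit of 17 livers. Dbp, an activator at D-box sites, had 3.07, 4.65 and 5.06 CPM in 50d, against 41.3, 64.0, 80.0 and 47.4 CPM in 21d (-3.77 ± 0.80, adjusted p = 0.0503). Its log2 fold change was larger in size than that of Per1, and so was its error. With DESeq2 its adjusted p was 0.000205, and with edgeR on the 7 libraries alone 0.000454. Nr1d1, which encodes REV-ERB alpha, had 12.6, 59.1 and 29.1 CPM in 50d, against 127.0, 104.6, 63.5 and 156.2 CPM in 21d (-1.75 ± 0.64, adjusted p = 0.284). Nr1d2, its partner REV-ERB beta, had 6.33, 20.9 and 12.0 CPM in 50d, against 43.2, 45.8, 37.7 and 31.5 CPM in 21d (-1.60 ± 0.40, adjusted p = 0.106). For Per1, Nr1d1 and Nr1d2 alike, replicate 2 was the highest and replicate 1 the lowest of the 50d libraries. Usp2, a rhythmic deubiquitinase, had 4.32, 3.64 and 4.85 CPM in 50d, against 10.9, 19.4, 49.8 and 14.2 CPM in 21d (-2.46 ± 0.64, adjusted p = 0.122). Ciart, a repressor of BMAL1 and CLOCK, was at 4 counts summed over the 3 libraries of 50d, against 234 counts over the 4 libraries of 21d, and no fold is given at that depth. Its counts lay between 1 and 2 in 50d and between 21 and 149 in 21d. Per2 overlapped, at 6.91, 10.6 and 6.96 CPM in 50d against 6.57, 21.6, 43.7 and 15.2 CPM in 21d. Nr1d2, Usp2, Ciart and Per2 were chosen after their values were seen.

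**Figure D2:**
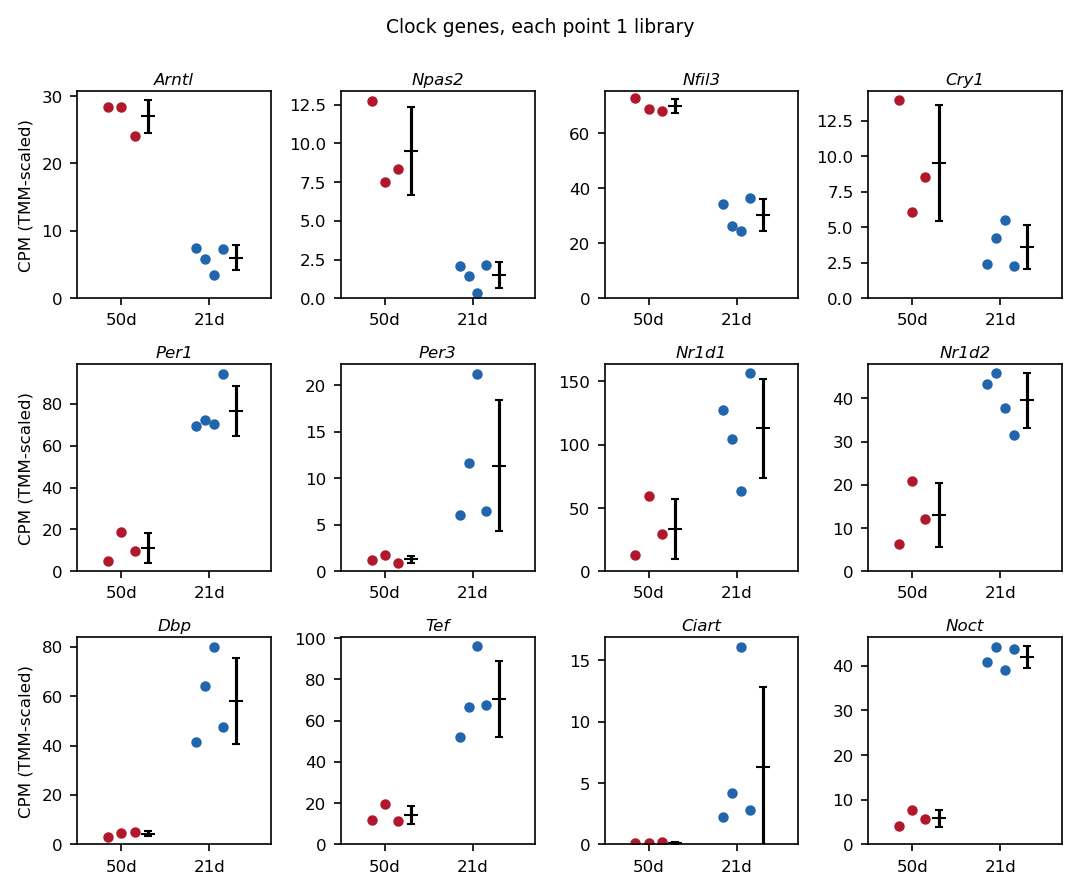
TMM-scaled CPM of 12 clock genes in each library, with 50d left of 21d in every panel. Points are libraries (3 and 4) and the bar beside them is the mean with its SD, cut off at 0 for Ciart. Arntl, Npas2, Nfil3 and Cry1 are higher in 50d and the other 8 genes lower, without overlap.

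RefSeq promoter windows (GRCm38.p6, 250 bases before to 50 after the start) were searched on both strands for the E-box bound by BMAL1 with CLOCK (CACGTG), the D-box bound by DBP, TEF and NFIL3 (TTATGTAA) and the ROR element bound by REV-ERB. The stretches below belong to clock genes just described, Cry1 among those higher in 50d, and capitals mark the motif. Each is printed on the gene's own strand.
Per1, E-box, chr11:69098753-69098818, plus strand: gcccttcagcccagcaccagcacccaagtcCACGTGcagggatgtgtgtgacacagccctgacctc
Tef, first promoter, E-box, chr15:81802516-81802581, plus strand: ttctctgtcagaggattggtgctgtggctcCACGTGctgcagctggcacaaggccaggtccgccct
Tef, second promoter, E-box, chr15:81811246-81811311, plus strand: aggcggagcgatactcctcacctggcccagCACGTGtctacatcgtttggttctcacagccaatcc
Cry1, E-box, chr10:85185079-85185144, minus strand: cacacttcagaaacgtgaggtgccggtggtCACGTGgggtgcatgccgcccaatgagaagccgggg
Ciart, 3 E-boxes, chr3:95882255-95882356, minus strand: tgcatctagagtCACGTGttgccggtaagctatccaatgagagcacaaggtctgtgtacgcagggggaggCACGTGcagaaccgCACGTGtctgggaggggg
Per3, 2 D-boxes, chr4:151044796-151044890, minus strand: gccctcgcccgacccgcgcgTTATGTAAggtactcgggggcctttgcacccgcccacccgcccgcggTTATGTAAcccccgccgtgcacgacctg
Arntl, ROR element, chr7:113207528-113207556, plus strand: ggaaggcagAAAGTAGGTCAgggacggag
The Per1 match begins 166 bases before the start, and the Arntl match lies 27 bases after it. An E-box was present in 11.5% of the 10801 tested genes with a window. It was present in 6 of 20 genes that fell (Per1, Tef, Dazap1, Gpd1l, Hook2 and Tmem131l) and in 5 of 28 that rose (Bbc3, Insig1, Slc16a1, Tjp3 and Tnfaip3). Of 26 clock list genes with a window 5 held one (19.2%): Per1, Tef, Ciart, Cry1 and Bhlhe41. A D-box was in 0.75% of windows and, of the genes that changed, in Per3. The ROR element was in 0.25% of windows and, of the genes that changed, in Arntl. These are matches of letters, and binding was not measured.

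The earlier days are given for 3 genes of the clock, one of the activating arm, one repressor and one output. Arntl averaged 7.65 CPM at 0d, 3.37 CPM at 7d and 6.02 ± 1.88 CPM at 21d (SD, n = 4), then 26.98 ± 2.46 CPM at 50d (SD, n = 3), with 18.3 CPM in WT. Per1 averaged 41.6 CPM at 0d, 61.9 CPM at 7d, 76.6 CPM at 21d and 11.2 CPM at 50d, with 80.4 CPM in WT. Dbp averaged 62.1 CPM at 0d, 80.0 CPM at 7d, 58.2 CPM at 21d and 4.26 CPM at 50d, with 24.9 CPM in WT. In these 3 genes the 50d libraries overlapped no library of 0d, 7d or 21d. They overlapped WT, which ran from 8.29 to 27.9 CPM for Arntl and from 4.72 to 63.7 CPM for Dbp, but not for Per1. Not all clock genes did so: Cry1 averaged 9.02 CPM at 7d and 9.54 CPM at 50d, and Nr1d1 ran from 15.4 to 145.3 CPM at 7d and from 12.6 to 59.1 CPM at 50d. The 0d and WT libraries are of the other sex, and their hours of collection are likewise not in the labels.

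**Figure D3:**
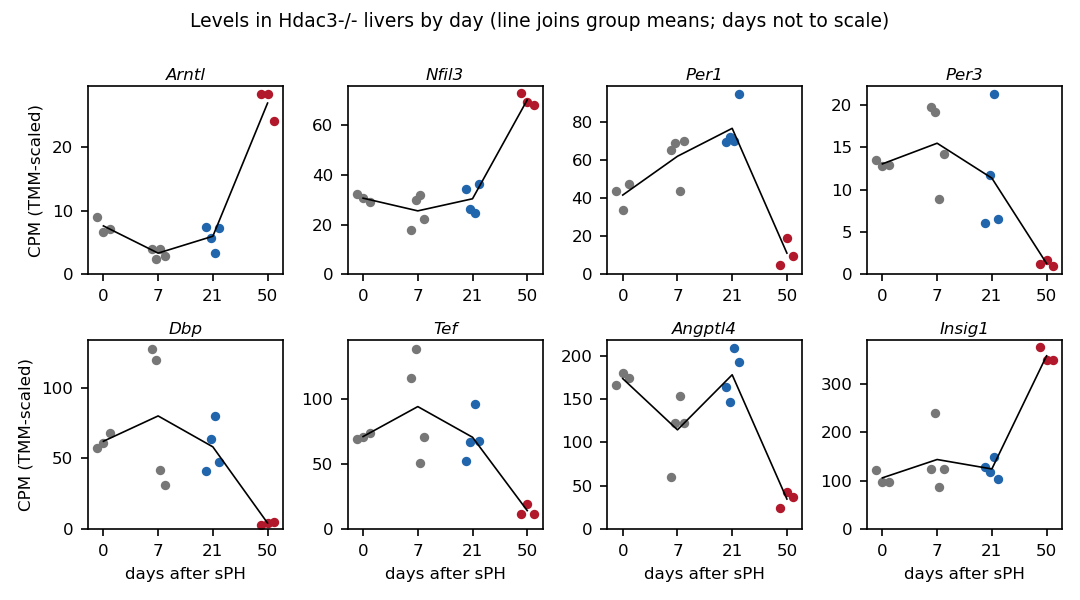
TMM-scaled CPM of 8 genes in livers labelled Hdac3-/- at 0, 7, 21 and 50 days after sPH. Points are libraries (3, 4, 4 and 3), the line joins group means and the days are evenly spaced, not to scale. Arntl, Nfil3 and Insig1 are highest at 50d, and Per1, Per3, Dbp, Tef and Angptl4 are lowest there.

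Angptl4 and Slc25a47 fell and kept their calls without any 1 library, but Slc25a47 lost its call with all 26 libraries fitted. Angptl4, on chromosome 17, encodes a secreted inhibitor of lipoprotein lipase that is raised by fasting. It stood at 23.8, 43.1 and 36.9 CPM in 50d, against 164.3, 146.7, 208.3 and 192.0 CPM in 21d. The groups were far apart, with a log2 fold change of -2.36 ± 0.28 (adjusted p = 0.00109, and at most 0.0172 without any 1 library). Slc25a47, on chromosome 12, is a mitochondrial carrier found mainly in liver. It stood at 121.0, 160.4 and 146.2 CPM in 50d, against 516, 440, 427 and 534 CPM in 21d (-1.75 ± 0.22, adjusted p = 0.00197, and at most 0.0261 without any 1 library). Its 21d libraries, 21d replicate 3 included, were all at over 400 CPM.

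Pnpla2 encodes the lipase that starts the breakdown of stored triglyceride. It stood at 97.5, 85.7 and 98.5 CPM in 50d, against 166.7, 174.7, 248.8 and 197.1 CPM in 21d (-1.07 ± 0.19, adjusted p = 0.0168). The call was lost without any 1 of the 50d libraries (adjusted p = 0.0873, 0.0915 and 0.0849 without replicates 1, 2 and 3). Mfsd2a encodes a carrier of lysophosphatidylcholine that is raised by fasting in liver. It stood at 0.19, 1.01 and 0.42 CPM in 50d, against 9.32, 11.1, 19.5 and 8.78 CPM in 21d, on 16 counts in all in 50d (-4.47 ± 0.93, adjusted p = 0.0463). Gabarapl1 encodes a protein of autophagosome membranes and stood at 235, 292 and 280.1 CPM in 50d, against 638, 538, 615 and 705 CPM in 21d (-1.21 ± 0.24, adjusted p = 0.0338). Both genes were separated between the groups, but neither call survived the loss of any 1 library, with an adjusted p of up to 0.242 for Mfsd2a and 0.209 for Gabarapl1. Of 24 lipid droplet and uptake genes tested, edgeR called Pnpla2 alone, DESeq2 and limma voom 3 lower each, and edgeR on the 7 libraries alone 1 higher and 2 lower. All 50d libraries lay below all 21d libraries in 6 of them and above in 2, against 6.96% and 7.95% of all genes tested. The list median was -0.47, or -0.25 without 21d replicate 3.

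No fatty acid oxidation or ketone gene passed the adjusted threshold, yet most lay lower in 50d. Of 29 tested, edgeR called 0, limma voom with quality weights 1 higher and 9 lower, DESeq2 1 higher and 3 lower, and edgeR on the 7 libraries alone 1 higher and 2 lower. An unadjusted p under 0.05 was reached by 15 lower members and 1 higher member, and the list median was -0.53. In 17 members all 50d libraries lay below all 21d libraries, against 6.96% of all genes tested. Cpt1a, the gate of fatty acid entry into mitochondria, had 168.9, 249.6 and 166.3 CPM in 50d, against 391, 383, 487 and 353 CPM in 21d (-1.05 ± 0.24, adjusted p = 0.0705). Slc25a20, the carrier that brings acylcarnitines into mitochondria, had 57.5, 61.9 and 67.7 CPM in 50d, against 101.4, 85.9, 124.1 and 116.3 CPM in 21d (-0.78 ± 0.19, adjusted p = 0.102). In both, every 50d library was below every 21d library. Ppara, the nuclear receptor that drives these genes, had 69.5, 123.5 and 74.6 CPM in 50d, against 164.1, 184.8, 162.3 and 205.3 CPM in 21d (-1.005 ± 0.34, adjusted p = 0.235). Pdk4, a fasting-raised brake on pyruvate use, ran the other way, with 11.03, 17.5 and 10.96 CPM in 50d against 5.51, 5.28, 7.55 and 4.93 CPM in 21d (1.18 ± 0.32, adjusted p = 0.141). It was the 1 member of the list with all 50d libraries above all 21d libraries. Cpt1a, Slc25a20, Ppara and Pdk4 were chosen after their values were seen.

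Ppard, on chromosome 17, encodes PPAR delta, a fatty-acid-sensing nuclear receptor related to PPAR alpha, and had the smallest adjusted p of all genes together with Slc11a2. It stood at 53.8, 38.2 and 44.0 CPM in 50d, against 12.2, 13.1, 15.7 and 15.6 CPM in 21d. The groups were well apart and each was tight, with a log2 fold change of 1.68 ± 0.18 (adjusted p = 0.000664, and at most 0.00748 without any 1 library). It averaged 17.6 CPM at 0d, 15.2 CPM at 7d and 10.6 CPM in WT. Of 36 hepatocyte transcription factor and nuclear receptor genes tested, edgeR called Ppard alone, DESeq2 2 higher, limma voom 2 higher and 4 lower, and edgeR on the 7 libraries alone 2 higher and 1 lower.

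Sterol genes lay higher in 50d. Of 24 cholesterol synthesis genes tested, edgeR and DESeq2 called 1 higher, in edgeR Insig1, limma voom 10 higher and edgeR on the 7 libraries alone 6 higher. All 24 had a positive log2 fold change, against 48.5% of all genes tested. In 13 members all 50d libraries lay above all 21d libraries, against 7.95% of all genes tested, and the list median was 0.64. Insig1, on chromosome 5, encodes the anchor that holds SREBP in the endoplasmic reticulum and is itself an SREBP target. It stood at 375, 349 and 348 CPM in 50d, against 127.6, 116.7, 148.6 and 102.9 CPM in 21d. No 21d library came near the 50d ones, with a log2 fold change of 1.53 ± 0.31 (adjusted p = 0.0391), but the adjusted p was over 0.05 in each of the 7 fits that left out 1 library, at up to 0.159. Mvd, an enzyme of the mevalonate steps, had 61.4, 39.2 and 34.6 CPM in 50d, against 12.4, 17.6, 23.3 and 19.6 CPM in 21d (1.31 ± 0.40, adjusted p = 0.179). Hmgcs1, which makes the precursor of mevalonate, had 982, 1099 and 1003 CPM in 50d, against 483, 489, 845 and 322 CPM in 21d (0.94 ± 0.36, adjusted p = 0.303). Lss, the cyclase that makes lanosterol, had 93.7, 105.9 and 78.6 CPM in 50d, against 42.5, 36.8, 58.1 and 42.9 CPM in 21d (1.04 ± 0.33, adjusted p = 0.207). These 3 genes, chosen after their values were seen, were separated between the groups, and 21d replicate 3 was the 21d library nearest to 50d in each.

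**Figure D4:**
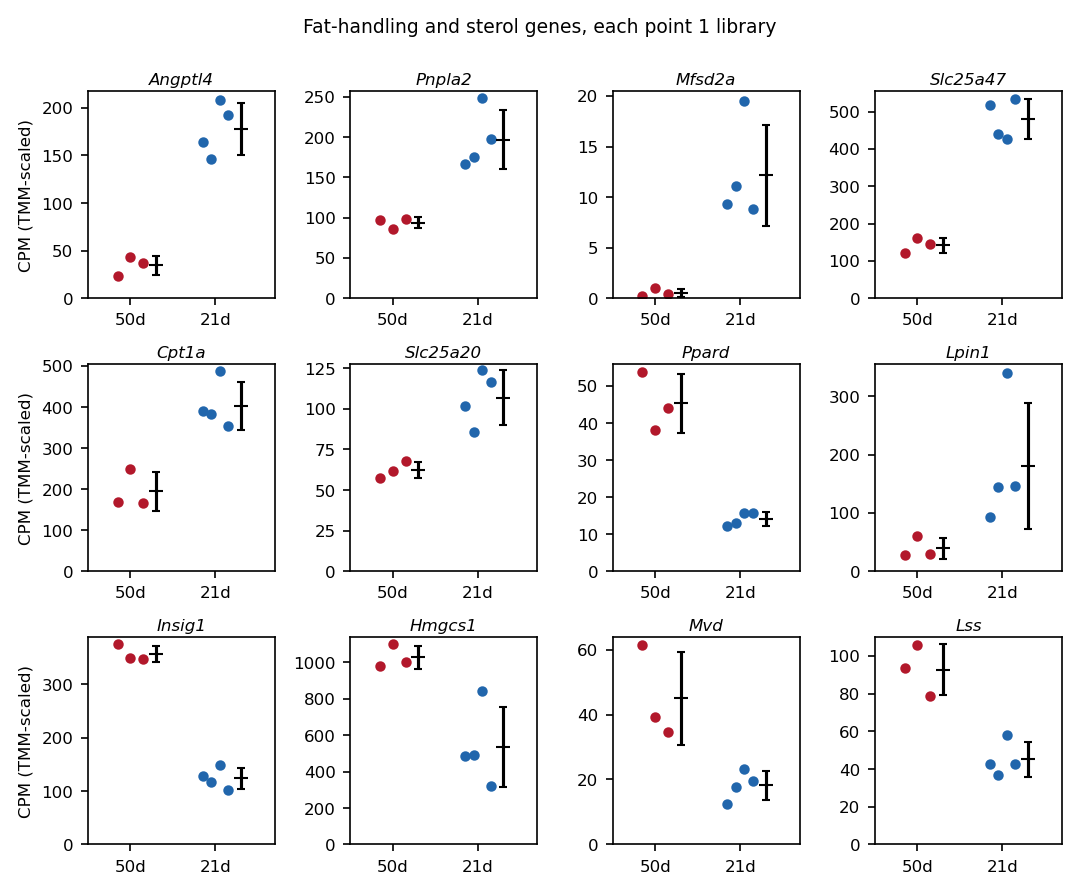
TMM-scaled CPM of 12 genes of fat and sterol handling in each library, with 50d left of 21d. Points are libraries (3 and 4) and the bar beside them is the mean with its SD. Ppard and the sterol genes Insig1, Hmgcs1, Mvd and Lss are higher in 50d, and the other 7 genes are lower, without overlap.

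No gene of glucose handling or bile acid synthesis passed the adjusted threshold in edgeR on the 17 livers, and on the 7 libraries alone it called 1 higher and 4 lower of glucose and 1 higher and 1 lower of bile acid genes. Of 22 glucose genes an unadjusted p under 0.05 was reached by 2 higher and 4 lower ones, against 6.02% and 6.07% of all genes tested. DESeq2 called 1 lower gene, against 0.859% of all genes. Limma voom with quality weights called 1 higher and 6 lower, against 3.36% and 2.94%. In 5 of the 22 all 50d libraries lay below all 21d libraries, against 6.96% of all genes. In 1 all lay above, against 7.95%. Slc2a2, the hepatocyte glucose carrier, had 37.3, 58.2 and 48.3 CPM in 50d, against 106.5, 92.3, 133.8 and 104.3 CPM in 21d (-1.19 ± 0.38, adjusted p = 0.204). Gys2, the liver glycogen synthase, had 55.2, 55.1 and 62.9 CPM in 50d, against 137.1, 125.5, 121.7 and 119.9 CPM in 21d (-1.13 ± 0.40, adjusted p = 0.262). Both, chosen after their values were seen, were lower in every 50d library. Of 19 bile acid genes an unadjusted p under 0.05 was reached by 3 higher and 2 lower ones, beside the same shares of all genes. DESeq2 called 1 higher gene, against 1.06% of all genes tested, and limma voom 2 higher and 2 lower. In 3 of the 19 all 50d libraries lay above all 21d libraries, against 7.95% of all genes. In 4 all lay below, against 6.96%. Cyp7a1, which opens and limits bile acid synthesis, had 62.4, 40.4 and 61.1 CPM in 50d, against 151.3, 174.0, 246.0 and 102.7 CPM in 21d (-1.62 ± 0.53, adjusted p = 0.227). Cyp8b1, which sets the share of cholic acid, had 90.3, 81.0 and 89.2 CPM in 50d, against 385, 268, 101.5 and 414 CPM in 21d (-1.75 ± 0.80, adjusted p = 0.402). Nr0b2, the nuclear receptor SHP that represses both genes, had 31.3, 22.8 and 26.4 CPM in 50d, against 8.47, 9.64, 5.61 and 9.26 CPM in 21d (1.699 ± 0.43, adjusted p = 0.106), and was chosen after its values were seen. The groups did not overlap in these 3 genes, although 21d replicate 3 came close to 50d for Cyp8b1.

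Acute phase genes, whose products the liver secretes in inflammation, lay mostly higher in 50d. Of 31 tested, edgeR called 1 higher, Steap4, DESeq2 3 higher, limma voom 11 higher and 1 lower, and edgeR on the 7 libraries alone 4 higher and 1 lower. Of the list 27 had a positive log2 fold change. In 23 all 50d libraries lay above all 21d libraries, against 7.95% of all genes tested, and in 1 all lay below, against 6.96%. The list median was 0.76. Steap4 encodes a metalloreductase raised by inflammatory signals. It stood at 624, 743 and 537 CPM in 50d, against 286, 222, 126.4 and 224 CPM in 21d (1.57 ± 0.31, adjusted p = 0.0342), and kept an adjusted p under 0.05 in 1 of the 7 fits that left out 1 library, with a largest value of 0.126. Saa1, the classical serum amyloid, had 9625, 8802 and 9757 CPM in 50d, against 2209, 1968, 251 and 3106 CPM in 21d (2.32 ± 0.81, adjusted p = 0.259). Its reads may be shared with the near-identical Saa2. Lcn2, an iron-withholding lipocalin, had 3951, 2764 and 3232 CPM in 50d, against 829, 728, 371 and 995 CPM in 21d (2.18 ± 0.59, adjusted p = 0.132). Socs3, the feedback inhibitor of this response, had 44.3, 35.7 and 40.2 CPM in 50d, against 21.3, 19.5, 8.84 and 22.6 CPM in 21d (1.15 ± 0.34, adjusted p = 0.164). In these 4 genes the groups were apart and 21d replicate 3 was the lowest library. At 7d Saa1 had 3234, 1579, 13940 and 2250 CPM and Lcn2 1162, 741, 5525 and 1558 CPM, so 1 library of 7d lay above every 50d library. In WT they averaged 297 and 147.8 CPM. Lcn2 and Socs3 were chosen after their values were seen.

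Slc11a2, on chromosome 15, encodes the ferrous iron carrier DMT1. It stood at 101.6, 105.6 and 88.2 CPM in 50d, against 40.2, 29.4, 28.5 and 41.6 CPM in 21d. The groups were clear of each other, with a log2 fold change of 1.495 ± 0.17 (adjusted p = 0.000664, and at most 0.00748 without any 1 library). Of 25 iron and heme genes tested, edgeR called Slc11a2 alone, DESeq2 2 higher, limma voom 4 higher and 1 lower, and edgeR on the 7 libraries alone 2 higher. Tifa, Tnfaip3 and Nfkbiz rose as well. Tifa, an adaptor upstream of TRAF6, stood at 92.8, 121.2 and 133.1 CPM in 50d, against 41.3, 42.5, 19.1 and 36.9 CPM in 21d (1.73 ± 0.34, adjusted p = 0.033). Tnfaip3, the inhibitor A20, stood at 18.5, 23.6 and 14.4 CPM in 50d, against 7.10, 10.0, 7.33 and 7.94 CPM in 21d (1.21 ± 0.23, adjusted p = 0.0304). Nfkbiz, a nuclear I kappa B protein, stood at 29.6, 37.8 and 29.8 CPM in 50d, against 17.6, 17.9, 14.4 and 17.7 CPM in 21d (0.94 ± 0.18, adjusted p = 0.0304). None of these 3 overlapped, and none kept its call in any fit that left out 1 library, with an adjusted p of up to 0.145, 0.135 and 0.109. Tnfaip3 and Nfkbiz were chosen after their values were seen.

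Markers of other cells were also compared. The 6 Kupffer cell markers summed to 771 to 1013 CPM in 50d and 484 to 617 CPM in 21d, without overlap, and 5 of the 6 had a positive log2 fold change. The 6 neutrophil markers summed to 50.1 to 129.4 CPM in 50d and 12.3 to 83.4 CPM in 21d, with overlap, and all 6 were positive. No marker of either set was at 0 in all 7 libraries. Of the wider lists of 21 Kupffer cell and 15 neutrophil genes edgeR and DESeq2 called 0, limma voom and edgeR on the 7 libraries alone called 2 higher in each, and an unadjusted p under 0.05 was reached by 3 higher genes in each. The 5 markers of recruited macrophages overlapped, at 17.1 to 28.4 CPM in 50d and 14.9 to 36.3 CPM in 21d. In whole liver, more cells of a type and more RNA per cell cannot be told apart. The part of these cells in the inflammatory genes was not tested.

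Among biliary and progenitor markers Sox9 rose. It encodes a transcription factor of bile duct cells and of hepatocytes near the portal tracts, and was the 1 of 19 list genes that edgeR called, where DESeq2, limma voom and edgeR on the 7 libraries alone each called 2 higher. It stood at 40.6, 23.1 and 35.9 CPM in 50d, against 7.52, 11.1, 10.0 and 10.2 CPM in 21d (1.77 ± 0.29, adjusted p = 0.0119). The lowest 50d library was well above the highest 21d library, and the call was lost without 50d replicate 1 (adjusted p = 0.0816) or 50d replicate 3 (0.0689). Spp1, or osteopontin, chosen after its values were seen, had 797, 499.7 and 844 CPM in 50d, against 248.9, 331, 325 and 159.0 CPM in 21d (1.42 ± 0.38, adjusted p = 0.125). Epcam and Krt19, markers of duct cells, overlapped between the groups, at 6.81, 5.66 and 8.75 CPM and at 10.9, 10.6 and 15.4 CPM in 50d, against 3.39, 6.80, 8.95 and 4.21 CPM and 5.19, 9.44, 15.2 and 6.49 CPM in 21d. The 4 bile duct markers summed to 42.0 to 65.6 CPM in 50d and 18.6 to 39.9 CPM in 21d, but Sox9 is 1 of them. Its own rise enters that sum, and the other members, Epcam, Krt19 and Krt7 (log2 fold change 0.09), each overlapped. The part of duct cells in the rise of Sox9 was not tested.

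The largest rises among genes with at least 5 CPM were in genes of varied roles. Pdzrn3, on chromosome 6, encodes a ubiquitin ligase and stood at 75.8, 48.0 and 55.1 CPM in 50d, against 13.1, 14.8, 9.60 and 12.2 CPM in 21d (2.26 ± 0.32, adjusted p = 0.00568, and at most 0.0352 without any 1 library). Vnn3, on chromosome 10, encodes a vanin, a family of pantetheinases, and stood at 235, 251 and 228 CPM in 50d, against 73.1, 55.4, 38.7 and 79.1 CPM in 21d (1.95 ± 0.26, adjusted p = 0.00338, and at most 0.0222). In both genes the lowest 50d library was far above the highest 21d library. Glipr2, a Golgi-associated protein, averaged 17.1 ± 5.63 CPM in 50d (SD here and for the means that follow) and 3.67 ± 0.76 CPM in 21d (log2 fold change 2.22 ± 0.44, adjusted p = 0.0333). Tmc5, of the transmembrane channel-like family, averaged 40.8 ± 12.9 CPM in 50d and 10.3 ± 3.34 CPM in 21d (1.99 ± 0.40, adjusted p = 0.0463). Acnat2, an acyl-CoA to amino acid transferase with a close paralog that may share its reads, averaged 49.8 ± 11.01 CPM in 50d and 13.0 ± 3.38 CPM in 21d (1.94 ± 0.40, adjusted p = 0.0436). These 3 calls were less firm, with an adjusted p of up to 0.174, 0.171 and 0.147 without 1 library. Tmc5 averaged 0.84 CPM at 0d and 11.3 CPM at 7d, and was at 0 CPM in WT.

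Sybu, which links cargo to kinesin, stood at 8.25, 6.47 and 6.75 CPM in 50d, against 1.695, 2.23, 1.62 and 1.80 CPM in 21d (1.95 ± 0.31, adjusted p = 0.0103). Grk5, a kinase of G-protein-coupled receptors, stood at 10.7, 15.1 and 13.5 CPM in 50d, against 3.71, 3.55, 4.74 and 4.09 CPM in 21d (1.701 ± 0.29, adjusted p = 0.0142). Fgl2, or fibroleukin, stood at 19.5, 19.5 and 15.6 CPM in 50d, against 9.64, 7.72, 5.93 and 4.09 CPM in 21d (1.41 ± 0.26, adjusted p = 0.0225). All 3 were separated between the groups. Sybu lost its call without 50d replicate 1 (adjusted p = 0.0754) or 50d replicate 3 (0.0539), and Grk5 and Fgl2 in 5 and 6 of the 7 fits that left out 1 library, at up to 0.0768 and 0.118. Of 24 p53 targets edgeR called Bbc3 alone, DESeq2 2 higher, limma voom 5 higher and edgeR on the 7 libraries alone 1 higher. Over all genes tested the shares called higher were 0.264%, 1.06%, 3.36% and 1.12%, in the same order. Bbc3, which encodes PUMA, averaged 16.7 ± 2.52 CPM in 50d and 8.67 ± 1.20 CPM in 21d (0.94 ± 0.20, adjusted p = 0.0466). Its call was lost in all 7 fits that left out 1 library, at up to 0.275. Cdkn1a, a p53 target that stops the cell cycle, overlapped, at 56.5, 35.1 and 56.5 CPM in 50d against 14.9, 26.3, 90.6 and 20.1 CPM in 21d. The other rises, chosen after their values were seen, were Pnrc1, Pter, Nostrin, Zfp36l1, Slc16a1, Apobec1, Celsr1, Ypel2, Tjp3, 9030619P08Rik, Klk1b4, Ngfr, Fem1c and Ermp1, with log2 fold changes between 0.72 for Ermp1 and 1.40 for Fem1c. Slc16a1 encodes the lactate and ketone carrier MCT1, Apobec1 the editor of apolipoprotein B RNA and Zfp36l1 a protein that speeds the decay of short-lived RNAs. Hesx1, Col8a1 and C1ql3 rose too but averaged under 5 CPM in both groups.

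**Figure D5:**
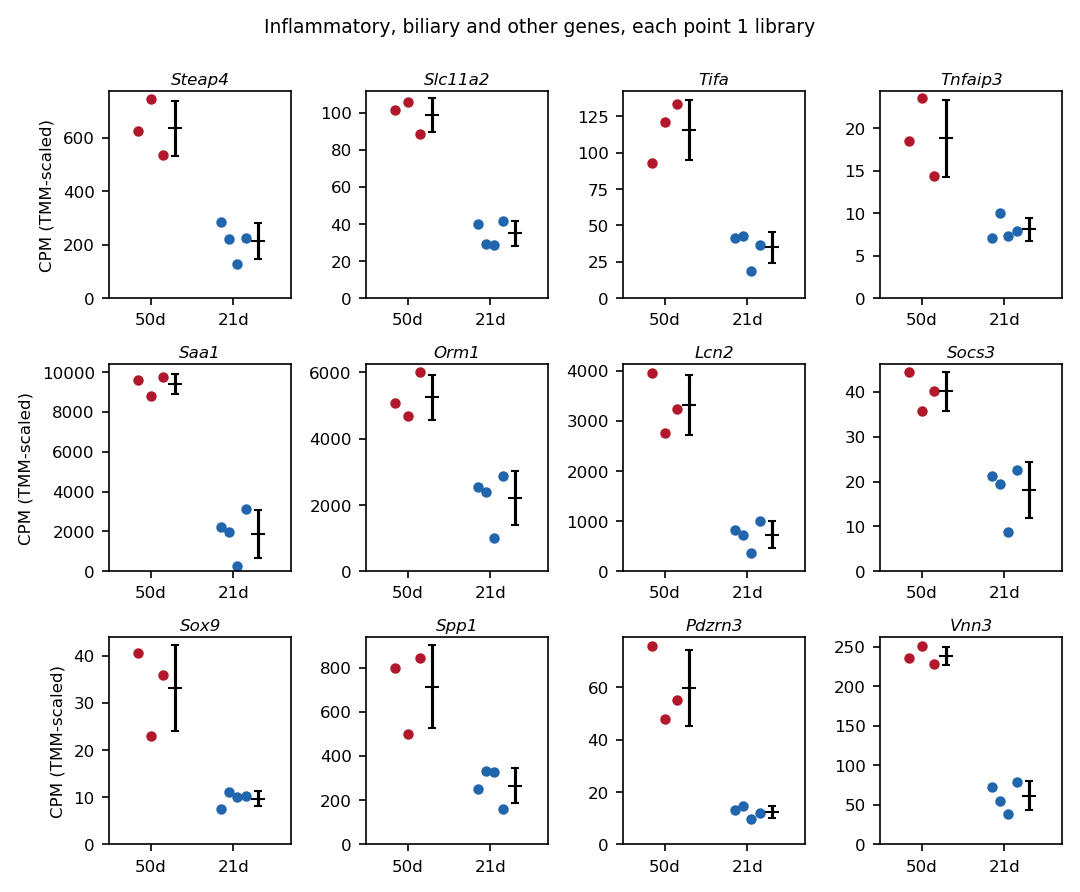
TMM-scaled CPM of 12 inflammatory, biliary and other genes in each library, with 50d left of 21d. Points are libraries (3 and 4) and the bar beside them is the mean with its SD. All 12 are higher in 50d without overlap, and 21d replicate 3 is the lowest library for Steap4, Slc11a2, Tifa, Saa1, Orm1, Lcn2, Socs3, Pdzrn3 and Vnn3.

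The remaining falls were in genes of varied roles. Rgs16, a brake on G-protein signalling that is rhythmic in liver, stood at 0.67, 2.22 and 1.69 CPM in 50d, against 7.73, 8.73, 13.0 and 7.70 CPM in 21d (-2.61 ± 0.43, adjusted p = 0.0119). It averaged 142.2 CPM at 0d, 13.3 CPM at 7d and 184.7 CPM in WT. Herpud1, of the disposal of misfolded endoplasmic reticulum proteins, stood at 78.0, 110.0 and 87.1 CPM in 50d, against 364, 316, 339 and 408 CPM in 21d (-1.96 ± 0.40, adjusted p = 0.04). Both genes were far apart between the groups, but the Herpud1 call was lost in all 7 fits that left out 1 library, at up to 0.228, and the Rgs16 call without 50d replicate 1 (0.0842) or 50d replicate 3 (0.0754). Pim3, a serine/threonine kinase, averaged 32.9 ± 9.02 CPM in 50d and 91.0 ± 14.2 CPM in 21d (-1.47 ± 0.28, adjusted p = 0.0304). Spata2l averaged 15.4 ± 1.64 CPM in 50d and 48.4 ± 15.3 CPM in 21d (-1.65 ± 0.26, adjusted p = 0.00851). Both were lower in every 50d library than in any 21d library. Lgals4, or galectin-4, averaged 4.92 ± 2.03 CPM in 50d and 16.7 ± 1.74 CPM in 21d (-1.76 ± 0.34, adjusted p = 0.0304). Cyp2c40 and Cyp2g1, cytochrome P450 genes, averaged 2.78 ± 1.03 and 1.69 ± 0.83 CPM in 50d and 8.85 ± 0.87 and 5.16 ± 0.31 CPM in 21d, and the near-identical paralogs of Cyp2c40 may share its reads. Their log2 fold changes were -1.67 ± 0.34 and -1.61 ± 0.34 (adjusted p = 0.0436 and 0.0463). Cyp2c40 averaged 767 CPM in WT and 12.4 CPM at 0d, both of the other sex, and 3.14 CPM at 7d. Without 1 library the adjusted p of Pim3, Spata2l, Lgals4, Cyp2c40 and Cyp2g1 reached 0.196, 0.0754, 0.164, 0.242 and 0.27. The other falls, chosen after their values were seen, were Zfp276, Tob2, Gpd1l, Usp36, Pde4c, Tmem131l, Hook2 and Dazap1, with log2 fold changes between -1.10 for Zfp276 and -0.55 for Dazap1.

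No cell cycle or fetal gene passed the adjusted threshold. Of 40 cell cycle genes tested, edgeR called 0, 2 reached an unadjusted p under 0.05, both higher, limma voom with quality weights called 5 higher and DESeq2 0, and the list median was 0.40, or 0.79 without 21d replicate 3. Of 22 fetal and tumor genes edgeR and DESeq2 called 0, limma voom 3 higher, and 2 higher ones reached an unadjusted p under 0.05. Mki67, a proliferation marker, had 10.4, 13.0 and 13.3 CPM in 50d, against 5.08, 6.19, 9.92 and 2.77 CPM in 21d (1.03 ± 0.55, adjusted p = 0.485). Ccnd1 and Myc overlapped, with log2 fold changes of 0.20 ± 0.32 and -0.57 ± 0.46. H19, a fetal imprinted RNA, had 15.9, 19.5 and 11.6 CPM in 50d, against 5.61, 26.2, 348 and 23.7 CPM in 21d, so 21d replicate 3 alone sets its mean. Igf2 had 0.48, 1.01 and 0.95 CPM in 50d, against 0.42, 0.51, 11 and 1.44 CPM in 21d, with the same library high. Afp and Gpc3 stayed under 3 CPM in every library of both groups. Alb averaged 39020 ± 2008 CPM in 50d and 34900 ± 3508 CPM in 21d and overlapped. Glul, a pericentral gene, overlapped too, at 819, 885 and 780.2 CPM in 50d against 1042, 809, 249.7 and 1016 CPM in 21d.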

How the data were processed

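RNA was taken from frozen liver with Trizol and made into TruSeq libraries, per the labels' protocols, and each library has its own deposited table. The submitters' processing notes name HISAT, Bowtie2 and the build mm10 without roles, and neither the counting tool nor the FPKM formula is given in the sources used here. Each table holds an expected count per gene, an estimate by the authors that need not be whole, and the authors' FPKM, per the file headers. Of the listed counts of these 7 libraries 21.0 to 21.5% were not whole. Counts were rounded, and a gene absent from a table was taken as 0. Of 19638 genes listed in any of the 26 tables, 19573 were matched by Entrez ID and 11 by accession to the GRCm38.p6 annotation, and 54 had no symbol. Counting by strand is not stated, so reads of overlapping genes cannot be told apart.

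The 17 young livers (WT, 0d, 7d, 21d and 50d) were fitted together in edgeR 4.0.16 under R 4.3.3 (filterByExpr, TMM, 2-sided quasi-likelihood F-test, Benjamini-Hochberg at 0.05), and the contrast was 50d minus 21d. The ± after a log2 fold change is its standard error, taken as its size over the square root of F. Alternatives were DESeq2 1.42.0, limma 3.58.1 (limma-trend on the log2 of FPKM with 1 or 0.1 added, and voom with quality weights), other scalings, filters and sets of libraries, a replicate block and each library left out.

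The comparison, the 47 gene lists (1201 genes, 18 in no table) and the alternatives were chosen with earlier results of these data known. Named by rule were the 15 largest rises and 15 largest falls among called genes without overlap whose higher group averaged 5 CPM or more, and up to 4 called genes per list. Named in every case were Hdac3, Alb, Afp, Igf2, H19, Gpc3, Mki67, Ccnd1, Myc, Cyp7a1, Cyp8b1, Glul, Epcam, Krt19, Sox9, Saa1, Cdkn1a, Dbp, Nr1d1 and Arntl. The text gives a part of the lists, and 1 item is not reported here. Nothing in the labels says that replicates came from separate animals, so p-values measure the spread between these samples, which may be technical.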

Additional observations from a re-analysis of the deposited data

Results flagged for a closer look

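In 10 of 99 genes examined, 1 of the 4 libraries of 21d lay far from the other 3. Chance gives about 1 in 20 where genes are independent. These genes shared the 4 libraries, and many were chosen after their values were seen. The 10 can therefore not be set against that rate. In 9 of the 10 genes the library lying apart was replicate 3. It was the highest for Plin2, a lipid droplet coat protein (1928 CPM), for H19 (348.4 CPM) and Igf2 (11 CPM), for Cdkn1a (90.57 CPM) and Ccnd1 (81.08 CPM), for Cyp4a14, a fatty acid hydroxylase (209.4 CPM), and for Ciart (16.06 CPM). It was the lowest for Clock (13.48 CPM) and Nfkbiz (14.45 CPM). The other case was Per1, which was highest in 21d replicate 4 (94.4 CPM). Of these 10 genes Per1 and Nfkbiz were called between 50d and 21d, and their direction was the same without the library concerned.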

How the results depend on the processing

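The counts of genes changed, higher and lower in 50d (60, 36 and 24) were within 1.5 times under DESeq2's size factors, library totals, no filter, the stricter filter, the 11 livers with Y-linked transcripts (49, 32 and 17), limma-trend on FPKM and a 2-fold minimum. Of the 60 genes 34 were called in the 11-library fit. The counts were 226, 143 and 83 with the 7 libraries compared alone, 261, 144 and 117 with DESeq2, 859, 458 and 401 with limma voom, 11, 6 and 5 with all 26 libraries, and 13, 8 and 5 at an adjusted p of 0.01. Leaving out 1 library gave 7 to 40 changed, 5 to 22 higher and 2 to 18 lower. Correlations of deviations were 0.107, -0.016 and -0.06 for equal replicate numbers and -0.144 to 0.092 for unequal ones. With so few libraries they cannot decide whether equal numbers mark pairs. With a replicate block 37, 23 and 14 genes were called. No other centring moved the median of all genes by over 0.1, and the share of calls that were higher (60.0%) was 48.3% with limma-trend on log2(FPKM + 0.1).

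For single genes 1475 values kept their direction and side of the threshold, 295 fell below it, 90 passed it and 16 reversed, all in uncalled genes. Hdac3 (-0.05) was 0.059 with voom and between -0.14 and 0.053 without 1 library, above 0 without 21d replicate 4 (0.02) or 50d replicate 2. Afp (-0.02) was 0.0055 with library totals, 0.0026 with the replicate block, 0.20 with voom, 0.011 and 0.036 with limma-trend at a pseudocount of 1 and 0.1, and between -0.14 and 0.16 without 1 library, above 0 without 21d replicates 3 and 4 (0.01) or 50d replicate 3 (0.05). Alb (0.16) was -0.030 with the block, and Glul (0.09) -0.028 with voom. Without 1 library Gpc3 (0.29) was between -0.13 (21d replicate 2) and 0.99, Igf2 (-2.03) between -2.40 and 0.068 (21d replicate 3) and Glul between -0.21 (21d replicate 3) and 0.26. The cause was not tested. Depth limits genes at a few counts, such as Ciart.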

Other observations

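Several chaperones of the endoplasmic reticulum lay higher in 50d than in 21d and several of the cytosol lower, genes chosen after their values were seen. Of 33 heat shock and chaperone genes tested edgeR called 0 and DESeq2 1 higher, where DESeq2 called 1.06% of all genes tested higher. Limma voom called 8 higher and 1 lower, against 3.36% and 2.94% of all genes. On the 7 libraries alone edgeR called 4 higher and 1 lower, against 1.12% and 0.648%. An unadjusted p under 0.05 was reached by 14 higher and 4 lower genes, against 6.02% and 6.07% of all genes. In 13 members all 50d libraries lay above all 21d libraries, against 7.95% of all genes. In 4 all lay below, against 6.96%. Hspa5, the main chaperone of the endoplasmic reticulum, had 785, 1142 and 881 CPM in 50d, against 483, 414, 444 and 382 CPM in 21d (log2 fold change 1.12 ± 0.30, adjusted p = 0.128). Its neighbours in that compartment, Hyou1 (0.97), Sdf2l1 (0.90), Hsp90b1 (0.88), Creld2 (0.87), Manf (0.84) and Pdia4 (0.80), were likewise higher without overlap. The cytosolic chaperones Hspa1a (-1.93), Hspa1b (-1.80), Hspa8 (-0.70) and Dnajb1 (-0.65) were lower without overlap, and Hspa1a and Hspa1b are near-identical genes that may share reads. Others did not follow this: the cytosolic Hsp90aa1 (0.61) was higher without overlap, and Hspa4, Hsph1, Hsp90ab1 and Dnaja1 of the cytosol and Dnajb9 of the endoplasmic reticulum (-0.09) overlapped. Herpud1, which often rises with Hspa5 in other settings, lay the other way.

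The major urinary proteins, pheromone carriers made by male liver, had a list median of -1.42 over 16 tested genes, 13 of them negative. Of these genes edgeR and DESeq2 called 0, limma voom called 2 lower, and 5 lower ones reached an unadjusted p under 0.05, but the groups overlapped in 14, and these near-identical genes may share reads. The 50 oxidative phosphorylation genes and 53 cytosolic ribosomal protein genes had medians of -0.26 and -0.25, with 48 and 52 negative. Of these genes edgeR and DESeq2 called 0, limma voom called 1 lower oxidative phosphorylation gene, and 6 and 2 lower ones reached an unadjusted p under 0.05.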
